A study of Mus musculus with 20 samples.

Results

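The regions described here are 5586 stretches of mouse chromatin that were called accessible in every wild-type cardiomyocyte culture, in no wild-type stem cell culture and in no Mettl3-knockout cardiomyocyte culture. They were found by merging the ATAC-seq peak intervals of 12 libraries wherever intervals shared at least 1 bp, which gave 193427 union regions, and by keeping those called in 3 of 3 CM WT, 0 of 3 ESC WT and 0 of 3 CM KO libraries. They made up 2.89% of the union regions and 49.5% of the 11278 regions that were called in 3 of 3 CM WT and 0 of 3 ESC WT libraries, which are called opened in WT below (5.83% of union regions). The 5586 regions are called the members. Because the calls chose them, their presence in CM WT and absence from ESC WT and CM KO are descriptions and carry no test.

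The study profiled C57BL/6 mouse embryonic stem cells (ESC) and cardiomyocytes (CM) made from them by way of embryoid bodies. Both were wild type (WT) or Mettl3-KO (KO), giving 4 groups. Each group had 3 ATAC-seq libraries of 100000 cells, 1 library of chromatin-associated RNA and 1 list of m6A positions in that RNA. All 4 groups share the strain, and the labels give no other allele or agent. The labels do not say how the knockout was made, whether a line was 1 clone or whether a group's 3 libraries stand for separate cultures, so spread between libraries may be technical.

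ATAC-seq reads out where a transposase can cut DNA, which is mostly at nucleosome-depleted promoters and enhancers. During differentiation, enhancers bound by lineage transcription factors such as GATA4, MEF2C, TBX5 and HAND2 gain accessibility, and those of pluripotency lose it. METTL3 is the catalytic subunit of the complex that writes N6-methyladenosine (m6A) on RNA, including RNA still bound to chromatin, and embryonic stem cells that lack it are known to leave the pluripotent state poorly.

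Members at the starts of muscle and matrix genes are shown here by their sequence. The RefSeq promoter table (GRCm38.p6, the assembly that mm10 names) holds the 250 bases before and 50 bases after a gene's start for 79.9% of 21883 protein-coding genes, and members overlapped 167 of its windows, at 153 genes. The 250 bases before the start are shown for 5 genes of the muscle, smooth muscle and matrix lists, 5′ to 3′ on the gene's strand. Capitals mark matches to motifs of muscle and enhancer factors, described after the sequences. A match is a string of letters, not a measured binding site.
Actc1 (cardiac alpha-actin), chr2:114052876-114053125, minus strand: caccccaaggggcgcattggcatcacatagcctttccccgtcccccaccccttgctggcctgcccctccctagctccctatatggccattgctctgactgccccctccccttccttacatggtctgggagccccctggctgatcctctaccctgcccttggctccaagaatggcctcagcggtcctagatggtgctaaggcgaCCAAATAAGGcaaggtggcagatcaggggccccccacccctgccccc
Ldb3 (a Z-disc protein), chr14:34588608-34588857, minus strand: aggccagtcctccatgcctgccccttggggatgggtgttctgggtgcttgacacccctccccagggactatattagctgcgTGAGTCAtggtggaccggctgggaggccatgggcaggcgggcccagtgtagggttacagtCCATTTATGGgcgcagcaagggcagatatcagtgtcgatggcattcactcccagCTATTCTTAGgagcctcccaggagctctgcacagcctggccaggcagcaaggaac
Mylk (myosin light chain kinase), chr16:34784700-34784949, plus strand: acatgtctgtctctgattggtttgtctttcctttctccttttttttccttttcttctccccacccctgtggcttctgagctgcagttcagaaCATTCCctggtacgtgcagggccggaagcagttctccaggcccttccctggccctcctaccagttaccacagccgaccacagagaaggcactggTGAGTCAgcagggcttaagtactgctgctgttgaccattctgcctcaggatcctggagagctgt
Col3a1 (a fibrillar collagen), chr1:45311288-45311537, plus strand: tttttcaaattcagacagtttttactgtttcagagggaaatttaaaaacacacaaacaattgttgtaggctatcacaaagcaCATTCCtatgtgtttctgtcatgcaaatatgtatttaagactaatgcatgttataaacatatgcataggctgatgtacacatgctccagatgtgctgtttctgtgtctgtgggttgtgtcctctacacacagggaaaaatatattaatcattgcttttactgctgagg
Col6a1 (a collagen VI chain), chr10:76726045-76726294, minus strand: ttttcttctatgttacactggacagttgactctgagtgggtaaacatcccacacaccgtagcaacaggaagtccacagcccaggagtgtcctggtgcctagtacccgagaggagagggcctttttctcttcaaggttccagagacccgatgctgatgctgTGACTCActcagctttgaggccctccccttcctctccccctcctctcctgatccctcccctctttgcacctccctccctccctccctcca
The starts shown for Mylk (chr16:34784950) and Ldb3 (chr14:34588607) lie inside the genes' spans, chr16:34745199-35002436 and chr14:34526699-34590314. They are therefore not the outermost starts of these genes. The member covered 238 of the printed bases at Actc1, 250 at Ldb3, 213 at Mylk, 85 at Col3a1 and 203 at Col6a1. The Actc1 stretch holds a CArG box, the core letters bound by serum response factor (SRF), from 47 to 38 bases before the start. The Ldb3 stretch holds an AP-1 match, a CArG box 109 to 100 bases before the start and a MEF2 match 55 to 46 bases before it. The Mylk stretch holds 1 TEAD and 1 AP-1 match and Col6a1 1 AP-1 match. These matches lie inside the members. The 1 TEAD match of the Col3a1 stretch, 168 to 163 bases before the start, lies outside the 85 bases that the member covers. The same stretch of Apoc2, an apolipoprotein gene whose start also lies in a member, held none of the 5 marked motifs.

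Motif letters were counted on both strands of the full 300-base windows that a member overlapped by at least 150 bp, which were 120 windows of 116 genes. The GATA letters AGATAA stood in 29 of these windows (24.2%), against 11.2% of all 32851 windows and 6.00% of the 16555 windows that any union region overlapped to the same extent. The MEF2 letters (CTA and TAG with any 4 bases between them) stood in 11 (9.17%), against 3.69% of all windows and 2.98% of those at any union region. The AP-1 letters TGANTCA stood in 26 (21.7%), against 7.81% and 5.59%, and the TEAD letters GGAATG in 32 (26.7%), against 14.7% and 12.4%. The CArG box stood in 5 windows (4.17%), against 1.63% and 1.34%; it can share bases with the MEF2 letters. The E-box CANNTG and the NKX2-5 letters AAGTG were about as frequent at members (70.8% and 46.7%) as in all windows (72.3% and 46.4%). The letters ATGCAAAT of POU factors stood in 1 window (0.833%), against 1.74% of all windows. The KLF letters CCNCNCCC stood in 45.0%, against 49.5% of all windows and 69.9% of those at any union region.

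Base composition moved with these shares. The windows at members had a median GC content of 51.2% and 4 CpG, near the 52.7% and 7 CpG of all windows and below the 61.0% and 20 CpG of windows at any union region. The part of base composition in the motif shares was not tested. Windows at the 1989 regions opened in both genotypes (called in 3 of 3 CM WT, 3 of 3 CM KO and 0 of 3 ESC WT) numbered 66 and held the GATA, AP-1 and TEAD letters in 24.2%, 22.7% and 28.8%, close to the members' shares. The MEF2 letters stood in 0 of those 66 windows.

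The members were weak peaks compared with the regions opened in both genotypes. The median summit fold over local background, as the authors' peak caller wrote it, was 4.40, 4.53 and 4.21 at members in CM WT 1, 2 and 3, and 6.49, 6.87 and 6.30 at regions opened in both genotypes. In read pileup the members' median summit held 15, 19 and 15 reads over a local background of 2.30, 2.82 and 2.24 reads. The regions opened in both genotypes held 26, 33 and 25 reads. The lowest of a member's −log10 q values over the 3 CM WT libraries had a median of 3.75, a 10th percentile of 2.16, a 90th percentile of 7.56 and a highest value of 21.9. It reached 10 in 208 members (3.72%) and in 53.7% of regions opened in both genotypes. Members were also narrower, with a median width of 334 bp against 476 bp, and their summits in the 3 libraries lay a median of 52 bp apart, within 100 bp in 78.2% of members.

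**Figure D1:**
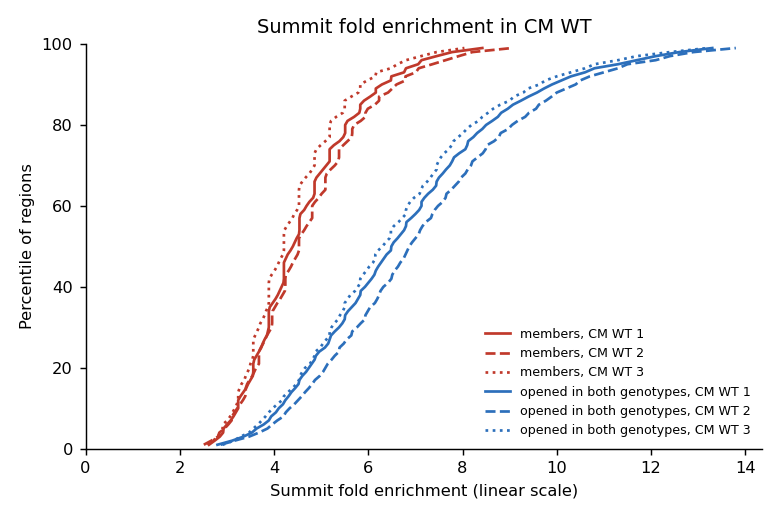
Percentile of regions (vertical axis) against summit fold enrichment over local background (horizontal axis, linear scale) in each of the 3 CM WT libraries, for members and for regions opened in both genotypes. The 3 member curves lie close to each other and to the left of all 3 curves of regions opened in both genotypes, with medians of 4.21 to 4.53 against 6.30 to 6.87.

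Absence from CM KO varied with the strength of the CM WT peak. Of the 583 regions opened in WT with a lowest −log10 q of 1.3 to 2, 70.5% were members, and of the 1854 with a value of 10 or more, 11.2% were. The share called in all 3 CM KO libraries ran the other way, from 2.74% to 57.7%. Just outside the rule, 2201 regions opened in WT were called in 1 CM KO library (median lowest −log10 q of 5.05) and 1502 in 2 (6.27), and the 1989 called in all 3 had a median of 10.6. On the ESC side, 364 regions met the rule except for a call in 1 ESC WT library and 977 except for calls in all 3. The mirror pattern, called in 3 of 3 CM KO but in 0 of 3 CM WT and 0 of 3 ESC WT, held 121 regions. Without CM WT 3, the library with the fewest intervals of its group, 8629 regions met the rule.

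**Figure D2:**
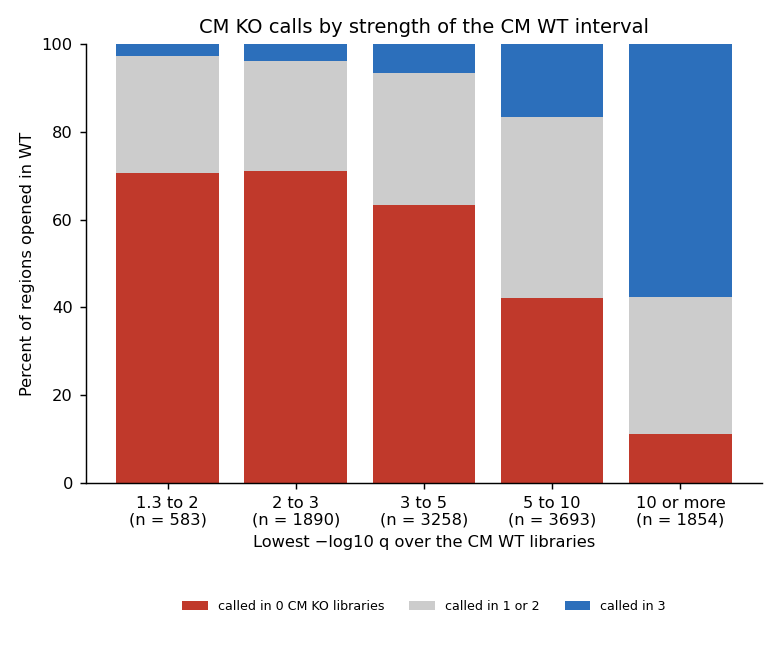
Percent of the regions opened in WT (vertical axis) that were called in 0, in 1 or 2, or in 3 CM KO libraries, by the lowest −log10 q over the CM WT libraries (horizontal axis, number of regions below each bar). The share called in 0 CM KO libraries goes from 70.5% in the weakest bar to 11.2% in the strongest.

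The CM KO libraries were shallower than the CM WT libraries. Their genome-wide background pileup was 1.58 to 1.72 reads against 2.09 to 2.53, and their lists held 70132 to 76381 intervals against 85443 to 94617. Over all union regions, 3.74% were called in 3 of 3 CM WT and 0 of 3 CM KO libraries and 0.754% the other way. When each member's CM WT summit was scaled down to the depth of a CM KO library, 91.8% to 97.4% of members still passed that library's threshold over the 9 pairs of libraries, and 4506 members (80.7%) passed in all 9. The summits scaled are the values that chose the members, and the scaling left out the noise of read sampling. These shares therefore do not measure how many calls lower depth would remove, which was not tested. When all 12 libraries were scaled to the lowest background, 4656 regions met the rule, 46.6% of those then opened in WT. When every library was cut to its strongest 70132 intervals, 3647 regions met the rule, 34.3% of those then opened in WT, and the mirror pattern held 559. The number of regions absent from CM KO lists thus varied with the length of the lists, and absence of a call does not show that chromatin was closed. The nearest CM KO interval lay a median of 6811 bp from a member and within 200 bp of 1.40% of members.

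The pattern was checked in libraries that had not been used to choose regions. For each of the 9 pairs of 1 CM WT and 1 CM KO library, regions were chosen by the rule in the other libraries, and calls were then counted in the pair. Between 7054 and 9657 regions were chosen, of which 66.2% to 87.7% were called in the CM WT library left out and 7.46% to 12.2% in the CM KO library left out. All other regions without an ESC WT call were called in 24.8% to 37.1% and 11.1% to 14%. These other regions include ones in the union only because a library left out called them, which raises their shares. The chosen regions could not enter that way. The CM WT shares depended on the library: leaving out 1 library at a time, they were 72.3%, 87.0% and 64.7% for CM WT 1, 2 and 3 (74.7% ± 11.3, SD, n = 3), and the deepest library, CM WT 2, gave the highest. The CM KO shares were 12.3%, 9.45% and 12.9% (11.6% ± 1.87, SD, n = 3). The regions were chosen for calls in the other CM WT libraries and absence from the other CM KO libraries. A higher CM WT than CM KO share was thus favoured by the choice. In the CM KO library left out, the chosen regions' shares (7.46% to 12.2%) were near those of the other regions (11.1% to 14%). As the latter shares are raised by regions that only that library called, no conclusion is drawn from this. The 3 values of a group rest on largely the same regions, so no test was run on them.

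**Figure D3:**
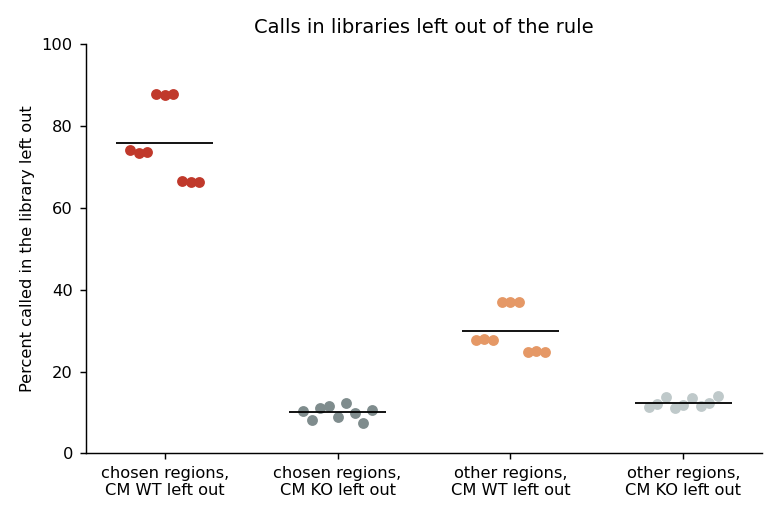
Percent of regions called in the library left out of the rule (vertical axis), for the 9 pairs of 1 CM WT and 1 CM KO library (points), with the mean of the pairs as a line. Among regions chosen in the other libraries, the CM WT library left out calls 66.2% to 87.7% and the CM KO library left out 7.46% to 12.2%. Other regions without an ESC WT call are the comparison, and include regions in the union only through a library left out.

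The ESC KO libraries took no part in the rule. At least 1 of them had a call at 372 members (6.66%, exact 95% binomial interval 6.02% to 7.35%, which covers counting error only), and all 3 at 37. By library, 3.42%, 2.88% and 3.44% of members were called in ESC KO 1, 2 and 3, against 14.9%, 15.6% and 19.5% of regions opened in both genotypes. Of all 11278 regions opened in WT, members included, 14.1% had an ESC KO call (7.16%, 6.92% and 8.34% by library). Of all 60410 union regions without an ESC WT call, 41.9% had one (19.9%, 17.6% and 21.0% by library). These shares include regions in the union only because an ESC KO library called them. Members were thus called less often than regions opened in both genotypes in each of the 3 ESC KO libraries, the same libraries being scored on both sets of regions. The same order held within each bin of CM WT strength: 8.52% of members against 50.0% in the weakest bin, which held 16 regions opened in both genotypes, and 3.37% against 26.7% in the strongest. Members that ESC KO libraries did call included the one at Smyd1 and Krcc1 (3 libraries), the one by Mef2c (2 libraries) and 1 of the 5 at Lmo7 (2 libraries).

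Members lay mostly away from gene starts. A gene start, or either end of a gene whose strand was not at hand, lay within 1 kb of 176 members (3.15%), against 10.5% of all union regions and 3.07% of regions opened in both genotypes. Known starts alone gave 116 members (2.08%), against 7.99% and 2.41%. The median distance to the nearest start was 35752 bp for members, 37499 bp for regions opened in both genotypes and 23604 bp for all union regions. Members overlapped a protein-coding gene in 50.4% of cases, against 55.7% of all union regions. Over 50 kb from any protein-coding gene lay 20.9% of members, against 15.8% of all union regions. The share of a chromosome's union regions that were members ran from 1.90% on chromosome X to 3.99% on chromosome 14.

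The 10 members with the highest lowest −log10 q had summit folds of 6.46 to 12.2. The strongest lay inside Lmo7, an actin-associated LIM-domain protein gene, at chr14:101892001-101892539, with folds of 10.0, 11.3 and 11.7 in CM WT 1, 2 and 3. The second lay 29211 bp from Enpp1 (a regulator of mineralisation), at chr10:24741370-24742135, with folds of 9.72, 10.5 and 10.7. The fourth lay inside the gene of the matrix proteoglycan decorin, Dcn, at chr10:97516504-97516805, with folds of 11.3, 10.8 and 9.07. A member inside Mical2, an actin-oxidising enzyme that activates SRF signalling, had folds of 7.52, 9.80 and 8.08. The other 6 were nearest to Dipk2a, Slc25a13, Gbf1, Cd83, Sema4a and Lurap1l. None of the 10 was called in an ESC KO library. Among the genes that held these peaks, chromatin RNA of Dcn was at 0.295 RPKM in CM WT and 0.0494 in CM KO, Mical2 at 0.522 and 0.132, Lmo7 at 0.268 and 0.166, and Gbf1 at 0.768 and 0.744.

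Within 10 kb of 2904 of the 21883 protein-coding genes (13.3%) there was at least 1 member, 699 genes had 2 or more and 212 had 3 or more. Genes with members were long, with a median span of 57.2 kb against 14.8 kb, so densities are given per Mb of gene span and flanks. Over all genes the density was 2.63 members and 0.850 regions opened in both genotypes per Mb. The largest number, 6, stood at 8 genes: Ror2 (a WNT5A receptor), Foxp1 (a forkhead transcription factor), Man1c1, Adam12 (a metalloproteinase), Tenm4, Syn3, Pard3b and Kalrn. Ror2, Foxp1, Syn3 and Kalrn had no region opened in both genotypes. The 6 members of Ror2 had CM WT folds from 2.70 to 6.91, and its RNA was at 1.59 RPKM in CM WT, 1.13 in CM KO, 0.827 in ESC WT and 0.498 in ESC KO. Adam12 was at 0.575, 0.363, 0.00809 and 0.0120 RPKM in the same order. CM KO was below CM WT in 7 of these 8 genes, the exception being Pard3b (0.252 RPKM in CM WT and 0.259 in CM KO). Without an RPKM filter, CM KO was above CM WT in 52.8% of all genes and in 19.0% of genes with 3 or more members.

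In the lists of cardiac, muscle, matrix and endoderm genes, a larger share of genes had a member than the background of 13.3%. A member stood near 8 of 25 cardiac transcription factor genes (5.90 per Mb), 10 of 33 sarcomere genes (6.14 per Mb), 7 of 15 smooth muscle genes (5.30 per Mb), 13 of 25 fibroblast and matrix genes (8.48 per Mb) and 9 of 23 endoderm genes (8.47 per Mb). The list of BMP, TGF-beta and WNT genes had 9 of 26 (6.62 per Mb) and that of YAP and TEAD genes 6 of 20 (4.94 per Mb). Calcium and conduction genes, many of them very long, had 6 of 25 at 2.94 per Mb, close to all genes. Endothelial genes had 4 of 21 (3.98 per Mb), blood genes 3 of 21 (5.67 per Mb) and cell cycle genes 2 of 26 (4.07 per Mb), each denser per Mb than all genes (2.63 per Mb). Neural genes had 1 of 20 (0.916 per Mb), pluripotency genes 3 of 30 (2.44 per Mb) and genes of the m6A machinery 2 of 21 (1.92 per Mb), each below all genes per Mb. Density above all genes was not particular to members. Regions opened in both genotypes (0.850 per Mb over all genes) stood at 5.39 per Mb for endoderm, 3.93 for cardiac transcription factor and 3.18 for matrix genes. They stood at 1.77 for smooth muscle and 1.23 for sarcomere genes. Only calcium and conduction (0.588), neural (0) and pluripotency genes (0.813) were below all genes in these regions. With members restricted to a lowest −log10 q of at least 5, near which 5.0% of all genes lay, sarcomere genes dropped to 2 of 33 (6.06%), smooth muscle genes to 2 of 15 and endothelial genes to 1 of 21 (4.76%). Matrix genes then had 7 of 25, endoderm genes 7 of 23 (30.4%) and cardiac transcription factor genes 5 of 25 (20.0%).

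**Figure D4:**
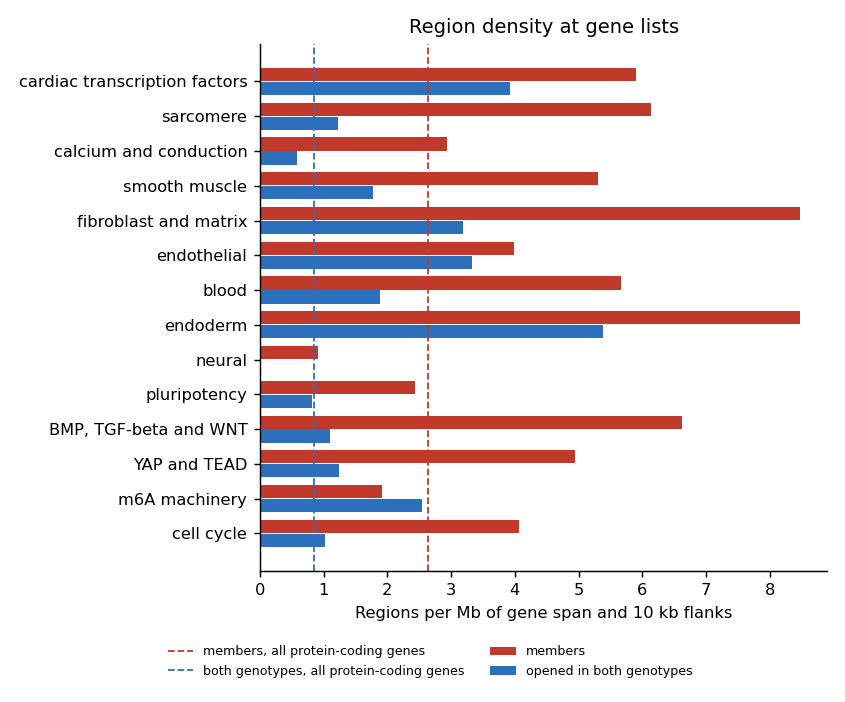
Regions per Mb of gene span with 10 kb flanks (horizontal axis) for 14 gene lists (vertical axis), for members and for regions opened in both genotypes, with dashed lines at the densities of all protein-coding genes (2.63 and 0.850). Matrix and endoderm genes have the densest members, 8.48 and 8.47 per Mb, and neural genes the sparsest, 0.916. Regions opened in both genotypes are densest at endoderm and cardiac transcription factor genes, 5.39 and 3.93 per Mb, and sparsest at neural genes, 0.

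Gata4 encodes a zinc-finger factor needed for heart formation and carried 2 members. One overlapped an end of the gene (chr14:63271500-63271834) with folds of 3.24, 4.57 and 4.03 in CM WT 1, 2 and 3, and the other lay inside it (chr14:63247703-63248022) with folds of 3.62, 3.14 and 3.44. Gata4 RNA was at 2.01 RPKM in CM WT and 0.964 in CM KO, a ratio of 0.480, and at 0.0270 and 0.0176 RPKM in ESC WT and ESC KO. Hand2, a basic helix-loop-helix factor of the heart, had members 2799 bp and 7253 bp from the gene with folds of 3.44 to 4.48, and its RNA was at 1.76 RPKM in CM WT and 0.929 in CM KO and not listed in either ESC library. The member in Mef2c had folds of 5.51, 9.62 and 6.15, highest in the deepest library, and its RNA was at 0.665 RPKM in CM WT and 0.359 in CM KO. Myocd, a coactivator of SRF, was at 0.429 and 0.157 RPKM and Tbx5 at 0.158 and 0.0446, each with 1 member. Prdm16 had 3 members, and Smyd1 and Mesp1 had 1 each. Of the 8 cardiac transcription factor genes with a member, 7 were lower in CM KO than in CM WT. The exception, Mesp1, had an estimated 2 and 3 reads. The comparison for this count and those of the lists below is all genes without an RPKM filter. CM KO was above CM WT in 52.8% of them and in 41.2% of those with 1 member. Genes listed in neither library count here as not above, so the remainder is not the share that was lower in CM KO.

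Actc1 had 1 member, which overlapped its start, with folds of 3.09, 4.50 and 4.77. Its RNA was at 1.90 RPKM in CM WT and 0.0962 in CM KO, a ratio of 0.0507, at 0.0114 in ESC WT, and not listed in ESC KO. Ldb3 had 3 members, with folds of 4.0, 2.86 and 4.11 at the start whose sequence is shown, and was at 0.176 RPKM in CM WT and 0.0270 in CM KO. Tnnt2, cardiac troponin T, had a member 119 bp outside the gene with folds of 3.55, 3.75 and 3.47 and was at 0.742 and 0.103 RPKM. Myl7, the atrial myosin light chain, had 2 members and was at 1.03 RPKM in CM WT (an estimated 65 reads) and 0.0312 in CM KO (an estimated 2 reads). Flnc (filamin C) went the other way, at 1.43 RPKM in CM WT and 2.14 in CM KO, and Actn2 was at 0.190 and 0.191. Of the 8 sarcomere genes with a member and RNA values, 6 were lower in CM KO.

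Of the 6 calcium and conduction genes with a member, 5 were lower in CM KO than in CM WT. Slc8a1, the sodium-calcium exchanger, had a member 2014 bp outside the gene with folds of 4.21, 5.09 and 4.53 and another inside it with folds of 5.18, 3.40 and 3.56. Its RNA was at 1.86 RPKM in CM WT and 0.233 in CM KO, a ratio of 0.125, and at 0.0292 and 0.0225 RPKM in the WT and KO stem cells. Cacna1c, the cardiac L-type calcium channel, had 4 members and was at 0.303 RPKM in CM WT and 0.0875 in CM KO. Ryr2, the calcium release channel, had 2 members with folds of 4.21 to 6.36 and was at 0.432 and 0.161 RPKM. Kcnq1, a potassium channel gene, had 5 members and little RNA, 0.0133 and 0.00439 RPKM. Cacna2d1 was at 0.337 and 0.342 RPKM.

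Matrix genes with members were mostly lower in CM KO. Col1a1, a chain of type I collagen, had a member at 1 end of the gene with folds of 3.36, 2.64 and 2.85 and was at 15.5 RPKM in CM WT and 4.34 in CM KO, a ratio of 0.280. In the WT and KO stem cells it was at 0.149 and 0.174 RPKM. Col3a1 had a member at its start with folds of 7.13, 3.68 and 3.56, of which the first stands apart, and was at 3.89 RPKM in CM WT and 0.734 in CM KO. Col1a2 was at 3.77 and 1.14 RPKM, and Col6a1 at 0.382 and 0.102. Fn1 (fibronectin) was higher in CM KO, at 9.12 RPKM in CM WT and 11.2 in CM KO, although 1 of its 2 members had folds of 7.35, 6.83 and 6.96. Pdgfra, a receptor of mesenchymal cells, was at 1.23 and 0.730 RPKM, and Fbn1 at 0.462 and 0.463. Of 13 matrix genes with a member, 11 were lower in CM KO, and all 7 smooth muscle genes were, among them Mylk at 0.0530 RPKM in CM WT and 0.0194 in CM KO.

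Endoderm genes with members were also lower in CM KO. Afp, the fetal serum protein gene of liver and yolk sac, had a member 2066 bp outside the gene with folds of 5.18, 5.09 and 4.53 and was at 1.00 RPKM in CM WT and 0.135 in CM KO. Apoa1 and Apoa4 shared a member with folds of 5.30, 6.51 and 6.63, and Apoa1 was at 1.89 and 0.764 RPKM. Hnf4a, a factor of visceral endoderm and liver, had 2 members and was at 0.243 and 0.109 RPKM. All 8 endoderm genes with a member and RNA values were lower in CM KO. The 3 blood genes with members were Runx1 at 0.542 RPKM in CM WT and 0.493 in CM KO, Csf1r at 0.537 and 0.0340, and Tyrobp at 0.359 and not listed. Blood genes without a member had a median CM KO to CM WT difference of 0.09 on the log2(RPKM + 1) scale, with 6 of 16 lower in CM KO. All 4 endothelial genes with members were higher in CM KO: Cdh5 at 0.465 and 0.843 RPKM, Fli1 at 0.782 and 1.20, Erg at 0.0821 and 0.137, and Notch1 at 0.636 and 0.720. With the libraries scaled so that the median gene did not differ, Notch1 was lower in CM KO and the other 3 endothelial genes remained higher.

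**Figure D5:**
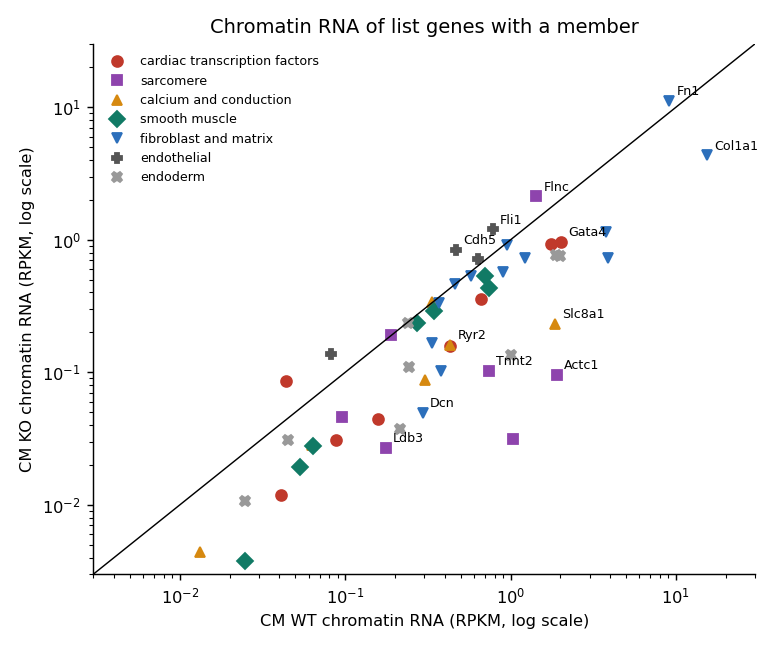
Chromatin RNA in CM KO (vertical axis, RPKM, log scale) against CM WT (horizontal axis, RPKM, log scale) for genes with a member on 7 lists, 1 library per group, leaving out genes at 0 in either. Most points lie below the diagonal of equal values, with Actc1 (1.90 and 0.0962) far below it, while Cdh5, Fli1, Flnc and Fn1 lie above.

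Signalling genes with a member went both ways. Of 9 BMP, TGF-beta and WNT genes, 5 were lower in CM KO, or 6 with the libraries scaled to the median gene. Wnt11, a noncanonical WNT ligand of heart development, had 2 members with folds of 3.69 to 5.06 and was at 0.230 RPKM in CM WT and 0.117 in CM KO. Tgfb2, a TGF-beta ligand, was at 1.22 and 1.04 RPKM with 1 member, and its receptor gene Tgfbr2 at 0.773 and 0.577 with 1 member of folds 7.93, 7.44 and 5.20. Nog, the BMP antagonist noggin, was higher in CM KO, at 0.281 and 0.633 RPKM, as was the ligand gene Bmp7 at 0.243 and 0.281. All 6 YAP and TEAD genes with a member were lower in CM KO, among them the kinase gene Lats2 at 0.489 and 0.325 RPKM, Amotl1 at 1.02 and 0.891, and Wwtr1, which encodes the coactivator TAZ, at 0.915 and 0.802.

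Muscle, cardiac and matrix genes without a member were mostly lower in CM KO as well. Among genes that had no member and were listed in CM WT or CM KO, this held for 20 of 21 sarcomere genes, 11 of 12 matrix genes, 12 of 16 cardiac transcription factor genes, 13 of 17 calcium and conduction genes, 7 of 8 smooth muscle genes, 8 of 12 endoderm genes and 9 of 14 YAP and TEAD genes. In the other lists fewer were lower in CM KO: 4 of 17 endothelial genes, 6 of 16 blood genes, 4 of 12 neural genes, 5 of 26 pluripotency genes, 5 of 17 BMP, TGF-beta and WNT genes, 2 of 18 genes of the m6A machinery and 5 of 24 cell cycle genes. On the log2(RPKM + 1) scale, the median CM KO to CM WT difference of matrix genes was −0.27 with a member and −0.24 without, and of sarcomere genes −0.13 and −0.18. Among BMP, TGF-beta and WNT genes it was −0.06 with a member and 0.16 without.

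RNA was then compared over all genes with members. Of 5282 protein-coding genes with at least 1 RPKM in at least 1 library, 677 had a member, and 55 of these passed only through CM WT. The median log2(RPKM + 1) difference from ESC WT to CM WT was −0.02 for genes with members and −0.23 for all genes, and from CM WT to CM KO it was 0.04 and 0.11. The medians differed by the number of members. In genes with 1, 2 and 3 or more members the median CM WT to ESC WT difference was −0.08, 0.32 and 0.38, and the CM KO to CM WT difference 0.07, −0.05 and −0.10. CM KO was above CM WT in 66.8%, 42.2% and 20.4% of these 521, 102 and 54 genes, against 73.7% of all genes. The median span also grew, from 44.2 to 96.9 and 184 kb, and its part in these differences was not tested. Of these genes, 24, 21 and 10 passed the filter only through CM WT, against 182 of all 5282, and such genes are higher in CM WT by the filter's construction. Among genes that passed through another library, the median CM WT to ESC WT difference was −0.11, 0.16 and 0.31 (−0.25 for all genes) and the CM KO to CM WT difference 0.08, 0.01 and −0.09 (0.12 for all genes). Without any filter the values were 0.03, 0.11 and 0.19 (0.00 for all genes), and −0.01, −0.02 and −0.06 (0.00). Both of these settings were chosen after seeing the data. Few genes differed 2-fold on this scale: 54 genes with members (7.98%) were at least 2-fold higher in CM WT than in ESC WT against 3.37% of all genes, and 6 (0.886%) were at least 2-fold lower in CM KO than in CM WT against 0.492%. In the other directions, 17 (2.51%) were at least 2-fold lower in CM WT than in ESC WT against 4.37% of all genes, and 0 were at least 2-fold higher in CM KO than in CM WT against 0.151%. From ESC KO to CM KO, 36 (5.32%) were at least 2-fold higher against 3.16% and 8 (1.18%) at least 2-fold lower against 1.42%. Between ESC WT and ESC KO, 0 were at least 2-fold higher in ESC KO and 1 (0.148%) at least 2-fold lower, against 0.0757% and 0.0947%. Between the stem cell libraries the median ESC KO to ESC WT difference was −0.07 for genes with members and −0.08 for all genes. Another 175 genes past the filter had no member but a region opened in both genotypes, and 17 of them passed only through CM WT. Of the 175, 14.9% were at least 2-fold higher in CM WT than in ESC WT. From CM WT to CM KO, 2.86% of them were at least 2-fold lower and 0.571% at least 2-fold higher. From ESC KO to CM KO, 11.4% were at least 2-fold higher. The 2-fold differences were thus not particular to genes with members. With 1 RNA library per group none of these differences has a replicate check.

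Markers of several cell types moved with genotype in the same RNA libraries. The summed level of 11 cardiomyocyte markers was 8.25 RPKM in CM WT, 0.980 in CM KO, 1.18 in ESC WT and 1.33 in ESC KO, and 6 of the 11 were below 0.1 RPKM in CM KO. The sums in CM WT and CM KO were 25.0 and 7.33 for 5 fibroblast and matrix markers, 4.16 and 1.89 for 4 smooth muscle markers, 13.8 and 5.58 for 4 endoderm markers, 2.52 and 3.84 for 4 endothelial markers, 40.7 and 45.1 for 4 blood markers, 0.499 and 0.538 for 4 neural markers and 6.63 and 10.4 for 5 pluripotency markers. In CM WT the sums of the blood, matrix and endoderm markers were above that of the cardiomyocyte markers, and those of the smooth muscle, endothelial, neural and pluripotency markers were below it. In such bulk samples, fewer cells of a type and less accessible chromatin or RNA per cell cannot be told apart, and the part of cell composition in the absence of members from CM KO was not tested. Mettl3 RNA itself was at 1.18 and 1.07 RPKM in CM WT and CM KO and at 1.73 and 1.28 RPKM in the WT and KO stem cells, which checks nothing where the deleted part is not given.

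At gene level, m6A positions of CM WT chromatin RNA were listed in 86.1% of the 677 genes with members and in 79.3% of all 5282 genes. In genes with 3 or more members the share was 94.4%. In the 175 genes with no member but a region opened in both genotypes it was 84.6%. For CM KO the shares were 68.5% of genes with members and 59.6% of all, with 14050 positions listed in total against 25753 in CM WT. The stem cell lists did not differ in this direction, with 17093 positions in ESC WT and 18181 in ESC KO. ESC WT positions were listed in 67.1% of genes with members and 68.1% of all, and ESC KO positions in 67.7% and 68.6%. Positions were listed in CM WT and not in CM KO for 17.9% of genes with members and 20.4% of all genes. Long genes give more room for both members and positions, and the part of gene length was not tested. Of the 677 genes with members 55 passed the RPKM filter only through CM WT, against 182 of all 5282. Such genes have RNA in CM WT by the filter's construction, and their part in the CM WT shares was not tested.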

How the data were processed

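ATAC-seq was single-end with 75-base reads, per the labels' protocols. The build mm10 and the tools MACS2, Bowtie, HISAT2, Picard and cutadapt are named, without versions, in the submitters' processing notes. Per the file layout, each deposited ATAC peak list gives 1 library's intervals with a score, a fold (ratio) at the summit, −log10 p and q values and the summit position. The labels do not say whether reads were shifted for the transposase. The deposited RNA tables hold RPKM per gene, made by the authors; low values fit whole reads over the gene span (60.1% to 63.8% within 0.05 of a whole number), which gave estimated totals of 27900000 to 29800000 reads. The deposited m6A lists hold a gene, a position within it and a motif. The counting strand is not given, so reads of overlapping genes cannot be told apart.

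With Python 3.11.15, numpy 2.4.6, pandas 2.3.3 and scipy 1.17.1, intervals were merged at 1 bp and the rule applied, after tests on simulated data. Summit pileups and local backgrounds were solved from each fold and p. Genes were matched within 10 kb and starts within 1 kb, using RefSeq tables of GRCm38.p6. RNA was compared as log2(RPKM + 1), with at least 1 RPKM in 1 library; a log2 difference on this scale understates changes of low genes, and plain ratios of RPKM are named as ratios. Of the RNA identifiers 99.5% had a symbol and 88.5% were in the gene table. Named genes are the 10 members with the highest lowest −log10 q, the 15 genes with most members, list genes with at least 2 members or a member at the start (others with 1 member where they show their list's values), and the lowest and highest 10 CM KO to CM WT differences among genes with a start member. One CM KO library (replicate 3) is labelled as RNA but its file has the peak-list layout, and it was used as ATAC. The members and lists were chosen with earlier results of these data known. Positions of m6A were used per gene, since they could not be placed on the genome.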

Additional observations from a re-analysis of the deposited data

How the results depend on the processing

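The number of members was 5456 with a −log10 q of at least 2 in all libraries, 5536 and 5412 under the other merging rules (at least 100 bp shared, gaps of up to 200 bp), 4656 after scaling, 3647 with equal list lengths and 1766 with a −log10 q of at least 5 in CM WT. Leaving out 1 library gave 5672 to 8629, the highest without CM WT replicate 3. The share with an ESC KO call, 6.66%, was 5.81% with q of at least 2, 4.93% with q of at least 5 in CM WT, 2.08% with equal list lengths and 5.48% after scaling, and 5.12% to 8.10% leaving out 1 library. The mean share called in the CM WT library left out was 90% with q of at least 5, and that in the CM KO library left out 17.4% with q of at least 5 and 15.7% with equal list lengths. The share at a gene start was 2.18% within 500 bp.

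The median RNA difference of genes with members from ESC WT to CM WT (−0.02) was −0.12 with a 50 kb window, 0.33 with at least 2 members per gene and 0.22 with libraries scaled to a median of 0. It crossed 0 by less than 0.1 without the RPKM filter (0.05) and with q of at least 5 (0.04). From CM WT to CM KO (0.04) it was −0.06 with at least 2 members per gene, −0.07 with scaling and −0.01 without the filter, and from ESC KO to CM KO (0.12) it was 0.33 with at least 2 members per gene. Why these values moved was not tested beyond what each setting changes. Of 83 alternatives, 52 stayed within 1.5 times (counts), 1 SD or the exact interval (shares) or 0.1 log2 (medians) of the reported value. Beyond these limits, 26 moved and 5, all RNA medians, changed sign. The share with an ESC KO call moved in 14 of its 18 alternatives. For genes with members, the CM WT to ESC WT and the CM KO to CM WT medians each changed sign in 2 of 6. The counts of list genes with strong members were chosen after seeing the data. No paired analysis was possible because the result comes from no test. The share of members holding an m6A position was not run, nor were its alternatives, since the positions could not be placed on the genome. For genes with 1 member the CM WT to ESC WT median (−0.08) was 0.03 without the RPKM filter. A lowest −log10 q under 2 was found for 411 members, and how far depth limits their calls was not tested.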

Other observations

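Genes outside the lists also had members at their starts or, where the strand was not at hand, at either end of the gene. Among the 29 genes with a start member that passed the RPKM filter, 13 (44.8%) were higher in CM KO than in CM WT, against 73.7% of all genes, and 10 of the 29 passed the filter only through CM WT. Ccl3, a macrophage chemokine gene, had a member over the gene with folds of 9.16, 8.66 and 7.45 in CM WT 1, 2 and 3 and was at 1.03 RPKM in CM WT and 0.0443 in CM KO, and not listed in either ESC library. Folr1, a folate receptor gene with a member 566 bp outside 1 end, was at 0.570 RPKM in CM WT and 0.159 in CM KO. It passed the filter through a stem cell library, where it was thus higher than in CM WT. Of the list genes with a start member, Axl, a receptor kinase of the YAP and TEAD list, did not pass the RPKM filter and is not among the 29. Its member had folds of 3.56, 2.41 and 2.85, and it was at 0.944 RPKM in CM WT and 0.373 in CM KO.

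Start members also stood at genes whose RNA was higher in CM KO. Krcc1 was at 0.817 RPKM in CM WT and 1.40 in CM KO, and the member 405 bp outside it was called in all 3 ESC KO libraries, with CM WT folds of 4.19, 3.80 and 4.19. Ifitm3, an interferon-induced membrane protein gene, was at 4.27 and 5.46 RPKM, below its ESC WT level of 10.7. Kdm2a, a histone demethylase gene, was at 1.84 and 2.25 RPKM. Its member lay 569 bp outside 1 end of the gene, and which end is the start was not at hand. The pluripotency genes with a member nearby, Klf4, Tfcp2l1 and Gdf3, were each lower in CM WT than in ESC WT, Klf4 at 0.319 RPKM in CM WT, 0.554 in CM KO, 2.26 in ESC WT and 2.77 in ESC KO, although their members were called in CM WT and not in ESC WT.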
